A study of Mus musculus with 9 samples.

Results

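The response of an Rb-null mouse prostate epithelial cell line to the loss of serum was read from 4 of the 9 arrays of the series: 2 of Rb-null cells grown with 5% fetal bovine serum and 2 of Rb-null cells kept for 48 hours in the same RPMI-1640 medium without it. The arrays were taken by their titles, and the comparison covers every probe set with a gene symbol. The rest of the series is a wild-type prostate epithelial line under the same conditions, with 3 arrays in serum and 2 without serum. Each genotype is represented by 1 cell line, neither carries another treatment according to the labels, and the labels do not give the extent of the Rb deletion. Whether the arrays within a group stem from different cultures is not stated either, so the p-values below measure the spread between arrays, which may be technical. Of 12422 probe sets, 10833 had exactly 1 symbol, and 8643 of these, for 7063 genes, were bright enough to test.

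Serum supplies growth factors, hormones, lipids and carrier proteins to cells in culture, and its removal stops most untransformed cells from entering the cell cycle. The retinoblastoma protein, the product of Rb1, takes part in that arrest by binding E2F transcription factors, which drive genes of DNA replication. Genes of mitosis are controlled largely by related pocket protein complexes that bind a promoter element called the cell cycle genes homology region. In prostate, the epithelium has a basal layer marked by keratins such as Krt5 and Krt14 and a luminal layer marked by Krt8 and Krt18.

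Values are normalized intensities, quantile normalized over the 9 arrays, with everything under a floor of 197 raised to it. The floor stands in for a detection limit because no detection calls came with the values. Rb1 itself was at the floor on all 4 Rb-null arrays and between 368 and 715 on the wild-type arrays. Krt8 (7821 to 10465) and Krt18 (6270.0 to 8616) were far above the floor on the Rb-null arrays, Krt5 ran from 546 to 686, and Krt14 was close to the floor at 205.2 to 229.5. The 15 leukocyte, 10 endothelial and 5 smooth muscle markers tested held 0 called genes by limma (1, 0 and 0 at an unadjusted p under 0.05), and their summed intensities in the Rb-null groups were 6948 and 7057 in serum against 6853 and 7005 without it for leukocyte markers, 4204 and 4247 against 4080.0 and 4122 for endothelial markers, and 6393 and 6641 against 6294 and 6796 for smooth muscle markers. A further 5, 3 and 3 members of those lists stayed under the floor. The rank correlation between the serum arrays was 0.996, between the serum-free arrays 0.99, and between arrays of different media 0.964 to 0.968. In the wild-type line, serum 1 stood apart from the other serum arrays (0.969 and 0.974, against 0.995 between those). It does not enter the Rb-null group means. It enters that comparison through the joint normalization and floor, the choice of probe sets and the shared estimate of spread.

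The largest changes on withdrawal were falls. With limma and Benjamini-Hochberg adjustment over all 9686 tested probe sets, an adjusted p under 0.05 is referred to as called. Of the 8643 probe sets with a symbol, 648 rose (7.5%) and 568 fell (6.57%), and counted by gene, on the brightest probe set of each, 538 rose (7.62%) and 469 fell (6.64%). The shares by gene are the background for the counts of each gene list below. All 1216 called probe sets had no overlap between the media, but so had 56.6% of all those tested, since groups of 2 arrays often separate. The median called rise was 0.49 and the median called fall -0.53 on the log2 scale, against a median of 0 over all genes. At least 2-fold changes were 53 rises and 85 falls, and 21 falls but 0 rises reached 4-fold. Changes from or to the floor are lower bounds, in rises such as that of Mgst1 (at least 3.23-fold) and in falls alike, so these counts depend on the floor. The total of 1348 called over all probe sets became 2257 without wild-type serum 1, 613 without Rb-null serum 1, 467 without Rb-null serum 2, 785 when Rb-null serum-free 1 was left out and 786 without Rb-null serum-free 2. Rises were 53.9% of the calls, 44.4% with the values as deposited, 43% without Rb-null serum 2 and 29.5% of the 105 calls left by a replicate block on the Rb-null arrays alone.

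**Figure D1:**
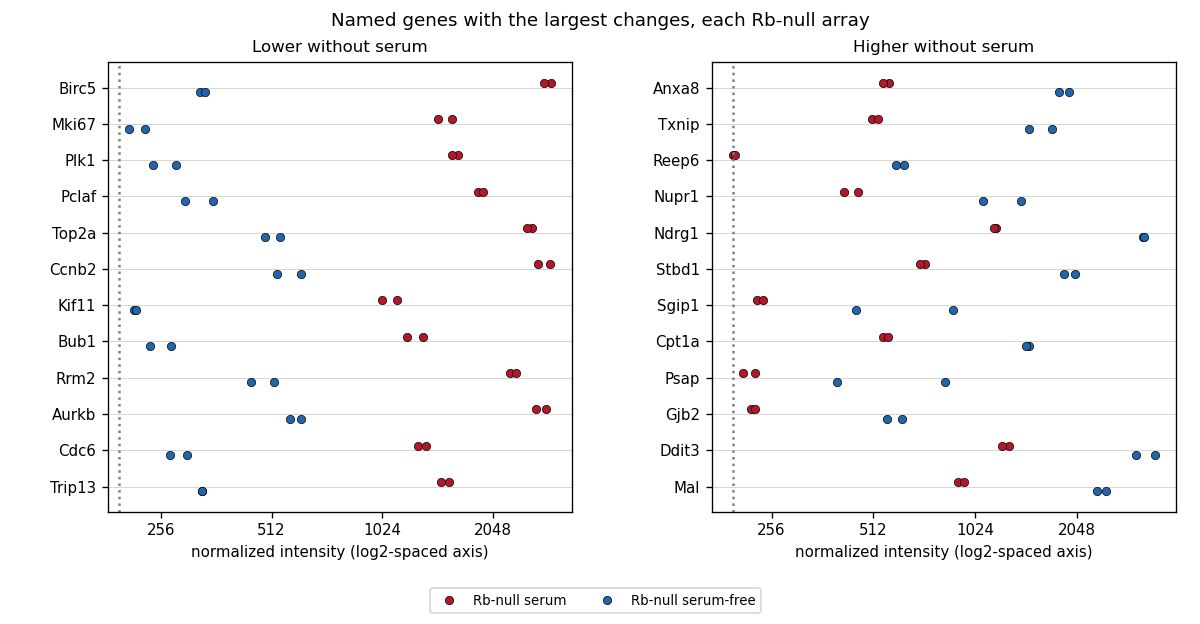
Normalized intensity of the 12 called genes with the lowest (left) and the 12 with the highest (right) log2 difference among those with a mean above the floor in both media, on a log2-spaced axis with 1 point per Rb-null array, red for serum and blue for serum-free. The dotted line is the floor of 197; the media do not overlap for any gene, and the serum-free points of Sgip1 and Psap lie far apart from each other.

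Genes that carry cells through mitosis made up most of the largest falls. Birc5, which encodes the chromosomal passenger survivin, read 2954 and 2828 on the serum arrays and 326 and 337 on the serum-free arrays. Both serum-free values were far below both serum values, a fall of 8.71-fold (log2 -3.12, SE 0.08, adjusted p = 2.52e-07). Mki67, the proliferation antigen Ki-67, read 1451 and 1589.6 with serum and 231 and 209.8 without (6.89-fold lower, SE 0.13 on the log2 scale, adjusted p = 3.95e-06). Its serum-free values came close to the floor, and a second Mki67 probe set went from 903 and 971 to the floor on both serum-free arrays, a fall of at least 4.76-fold. The spindle motor Kif11 dropped from 1020.1 and 1124.5 to 217 and 219 (4.92-fold, adjusted p = 6.05e-06), also near the floor.

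The checkpoint kinase Bub1 read 1198 and 1326 in serum and 272 and 239 without it, and the mitotic cyclin Ccnb2 2719 and 2923.5 against 616 and 529.5, each 4.94-fold lower (log2 -2.3, SE 0.16, adjusted p = 2.25e-05). The chromosomal passenger kinase Aurkb fell 4.64-fold, from 2691 and 2853 to 618 and 577 (adjusted p = 4.99e-06). For these kinases and the cyclin the media were widely separated and the pairs of replicate arrays close. Prc1, which bundles the midzone microtubules, fell 4.26-fold (1802 and 1898 to 442 and 426). Trip13, an ATPase of the spindle checkpoint, fell 4.6-fold (1561 and 1484 to 331.4 and 330.6; adjusted p = 1.47e-05). The spindle protein Tacc3 went from 781.2 and 781.0 on the serum arrays to the floor, at least 3.97-fold lower, and Cip2a, an inhibitor of protein phosphatase 2A, from 998 and 1027 to the floor, at least 5.15-fold lower. An uncharacterised transcript, 2700099C18Rik, also ended at the floor (787 and 753 in serum, at least 3.91-fold lower).

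Of the 37 mitosis genes tested, 31 fell and 0 rose, with a median log2 difference of -1.67 against 0 over all genes and a range of -3.12 to -0.11. All 37 had lower values on both serum-free arrays than on both serum arrays, a separation that 56.6% of all probe sets showed in either direction. The count of falls ran from 28 without Rb-null serum 2 to 35 without wild-type serum 1. Of the 6 not called, Racgap1 differed between its serum-free arrays (959 and 1837), while Stmn1, Foxm1 and Bub3 moved by -0.11, -0.26 and -0.38. Plk1, the polo-like kinase of mitotic entry, and the phosphatase Cdc25c counted as not called on their brightest probe sets (-0.26 and -0.3), yet other probe sets of the same genes were called. The Plk1 probe set with the largest change went from 1649 and 1588.5 to 281.5 and 244 (6.18-fold, adjusted p = 7e-06), and that of Cdc25c, named here after its values were seen, from 731.5 and 725 to 210.0 and 199.0. Which probe set reads the transcript of these genes better cannot be told from the values.

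Promoter windows from RefSeq (mouse build GRCm38.p6, 250 bases before to 50 after each start site) were at hand for 5659 of the 7063 genes. The letters TTTGAA, the core of the cell cycle genes homology region, occurred on either strand in the windows of 17 of 27 called mitosis genes (63%), of 28 of 62 genes that fell at least 2-fold (45.2%), of 94 of 389 genes that fell (24.2%), of 55 of 425 that rose (12.9%) and of 840 of all 5659 (14.8%). Over all 32851 windows of the table the share was 17.9%. The 4 stretches below, from 190 bases before to 30 after the start, belong to genes among the 12 plotted as lowest with a match inside them, and TTTGAA or its reverse complement is in capitals.
Mki67 (chr7:135716350-135716569, minus strand): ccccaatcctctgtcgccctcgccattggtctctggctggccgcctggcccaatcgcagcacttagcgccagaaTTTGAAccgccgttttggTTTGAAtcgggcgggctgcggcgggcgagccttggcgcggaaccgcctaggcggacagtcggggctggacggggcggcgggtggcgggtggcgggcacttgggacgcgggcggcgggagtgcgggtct
Top2a (chr11:99024160-99024379, minus strand): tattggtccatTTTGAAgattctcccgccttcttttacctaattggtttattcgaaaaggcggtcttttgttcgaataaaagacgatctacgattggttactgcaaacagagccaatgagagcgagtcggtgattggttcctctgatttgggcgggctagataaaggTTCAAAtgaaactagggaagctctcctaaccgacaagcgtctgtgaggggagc
Ccnb2 (chr9:70421525-70421744, minus strand): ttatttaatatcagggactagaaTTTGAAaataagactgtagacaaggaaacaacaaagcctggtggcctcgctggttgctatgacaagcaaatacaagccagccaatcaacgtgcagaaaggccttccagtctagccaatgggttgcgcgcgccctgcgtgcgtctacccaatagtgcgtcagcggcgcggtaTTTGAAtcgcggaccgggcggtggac
Kif11 (chr19:37376192-37376411, plus strand): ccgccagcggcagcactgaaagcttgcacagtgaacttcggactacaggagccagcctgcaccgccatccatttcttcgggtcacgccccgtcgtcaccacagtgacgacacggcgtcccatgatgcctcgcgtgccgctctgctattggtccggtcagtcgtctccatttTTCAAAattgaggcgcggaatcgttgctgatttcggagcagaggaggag

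Mki67 and Top2a hold pairs of matches, which begin 116 and 98 bases before the start in Mki67 and 179 and 23 bases before it in Top2a. In Ccnb2 the matches begin 167 bases before and 4 bases after the start, and in Kif11 the match begins 19 bases before it. The window of Birc5 has no TTTGAA and neither has that of Bub1, which says only that these letters are not in these stretches. A match is a string of letters and not a measured binding site, and a base may belong to the match of more than 1 motif searched.

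Of 55 DNA replication and nucleotide synthesis genes tested, 35 fell and 0 rose, with a median of -0.45 and a range of -2.32 to 0.09. The count was 22 without Rb-null serum 1, 22 without Rb-null serum 2 and 43 without wild-type serum 1. Top2a, the topoisomerase that separates replicated chromosomes, read 2626 and 2541 in serum and 539 and 493 without (5.01-fold lower, SE 0.08 on the log2 scale, adjusted p = 8.21e-07). Rrm2, the regulated subunit of ribonucleotide reductase, went from 2279 and 2369 to 519 and 449.8 (4.81-fold, adjusted p = 3.95e-06). The origin licensing factor Cdc6 went from 1286 and 1346.5 to 302 and 271 (4.6-fold, adjusted p = 6.43e-06). In each of these genes every serum-free array was far below every serum array. The condensin subunit Smc4 fell less, 2.85-fold (2269 and 2296 to 794 and 810.1), and Pclaf, which binds the replication clamp PCNA, fell 5.83-fold (1867 and 1924 to 355.5 and 297).

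E2F motifs, searched as TTTGGCGC, TTTCGCGC and TTTCCCGC on both strands, occurred in the windows of 9 of 31 called replication genes (29%), 1 of 27 called mitosis genes (3.7%), 33 of 389 genes that fell (8.48%), 16 of 425 that rose (3.76%) and 229 of all 5659 (4.05%). Cdc6 and Pclaf are shown because they were among the 12 genes plotted as lowest and hold a match, in capitals.
Cdc6 (chr11:98907961-98908180, plus strand): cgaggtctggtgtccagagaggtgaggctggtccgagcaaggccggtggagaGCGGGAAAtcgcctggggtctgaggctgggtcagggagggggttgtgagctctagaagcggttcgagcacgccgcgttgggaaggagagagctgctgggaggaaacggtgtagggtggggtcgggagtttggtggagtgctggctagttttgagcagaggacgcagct
Pclaf (chr9:65890133-65890352, plus strand): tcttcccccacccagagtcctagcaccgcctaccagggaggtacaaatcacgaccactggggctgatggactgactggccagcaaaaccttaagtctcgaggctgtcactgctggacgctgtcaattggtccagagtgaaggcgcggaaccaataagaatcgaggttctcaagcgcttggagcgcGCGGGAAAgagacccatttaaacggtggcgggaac
The match begins 138 bases before the start in Cdc6 and 5 bases before it in Pclaf. Rrm2 holds none of these letters.

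The minichromosome maintenance genes, which encode the replicative helicase and are described here after their values were seen, moved less than the genes above. Mcm2 read 1455 and 1496 in serum against 1138 and 1062 without (log2 -0.42, SE 0.1, adjusted p = 0.0218), and Mcm4 fell by the same log2 amount (adjusted p = 0.0289). Mcm3 fell by 0.68 (3213 and 3101 to 1839 and 2108, adjusted p = 0.00103). Mcm7 did not pass, with 2631 and 2327 against 2221 and 2369 (-0.11, adjusted p = 0.62). The brightest Mcm5 probe set did not pass (-0.05), while another did (-0.93, adjusted p = 0.000307).

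Among 20 G1/S cyclins and RB-E2F family genes, 6 fell and 1 rose (median -0.2), and the falls numbered 3 without Rb-null serum 2, 3 without Rb-null serum-free 1 and 10 without wild-type serum 1. Ccna2, the S phase cyclin, read 2317 and 2319.9 in serum and 1038 and 931 without (2.36-fold lower, adjusted p = 1.47e-05). Cks1b, a cofactor of the cyclin-dependent kinases, read 4042 and 4116 against 1802 and 1829.6 (2.25-fold, adjusted p = 7e-06). For both genes the media were clearly apart. Ccnd1, the cyclin that links growth factor signals to the cycle, fell 1.4-fold (5075 and 5174 to 3673 and 3655, adjusted p = 0.000617), but a second Ccnd1 probe set did not pass (-0.09, adjusted p = 0.853). The rise was that of Rbl2, the pocket protein p130, which was at the floor in serum and at 275 and 230.5 without it, a call lost without either Rb-null serum array. The 6 CDK inhibitors tested held 2 rises and 0 falls, with 0 rises without Rb-null serum 2 and 1 without any other Rb-null array. Cdkn1a, the inhibitor p21, read 3046.5 and 2679.7 in serum and 3894.5 and 3996 without (1.38-fold higher, adjusted p = 0.00754). Its call was lost without Rb-null serum 2 (adjusted p = 0.0902) and without Rb-null serum-free 2 (0.0623). Id2, an inhibitor of basic helix-loop-helix factors that also binds the retinoblastoma protein, read 711 and 699 in serum and 1084 and 945 without (1.44-fold higher, adjusted p = 0.0043), a call lost without Rb-null serum 2 (0.051). Cdkn1b, the inhibitor p27, did not pass (-0.1, adjusted p = 0.777).

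A minority of the lipid synthesis genes passed the test, nearly all of them as falls. Of 22 cholesterol synthesis and uptake genes tested, 7 fell and 1 rose (median -0.27). The falls numbered 3 without Rb-null serum 1, serum 2 or serum-free 2, 4 without wild-type serum 2, serum-free 1 or serum-free 2, and 11 without wild-type serum 1. Idi1, the isopentenyl diphosphate isomerase, went from 2878 and 2894 to 1047 and 837 (3.08-fold lower, SE 0.13 on the log2 scale, adjusted p = 5.66e-05). Cyp51, the lanosterol demethylase, went from 1877 and 1963 to 993.5 and 809.9 (2.14-fold, adjusted p = 0.0014), and Sqle, the squalene epoxidase, from 3365 and 3455 to 2112 and 1756 (1.77-fold, adjusted p = 0.000827). In each, the serum arrays were closer to each other than the serum-free arrays were. The sterol regulatory letters TCACNCCAC were in the window of 1 of 5 called genes of the list and in 1.56% of all windows of tested genes.

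Fatty acid synthesis and desaturation genes held 5 falls and 0 rises among 13 tested (3 falls without Rb-null serum 1, serum 2 or serum-free 2). Elovl6, an elongase, went from 703 and 762 to 400.4 and 414 (1.8-fold lower, adjusted p = 0.000318), Fads1, a desaturase, from 760.5 and 772 to 512 and 477 (1.55-fold), and Fasn, the fatty acid synthase, from 3599 and 3532 to 2402 and 2366 (1.5-fold, adjusted p = 0.000388). None of these genes overlapped between the media. Fatty acid oxidation genes held 6 rises and 1 fall among 22 (median 0.18), with 10 rises without wild-type serum 1. Cpt1a, which admits long-chain fatty acids to mitochondria, rose 2.63-fold, from 547 and 563.5 to 1477 and 1444 (SE 0.08 on the log2 scale, adjusted p = 1.07e-05). Acaa2, the mitochondrial thiolase, rose 1.86-fold (1256 and 1316 to 2448 and 2348, adjusted p = 0.0013). The fall was that of Fabp5, a cytosolic fatty acid binding protein placed on this list, which went from 3179 and 3211 to 1472 and 1184 (2.42-fold lower, adjusted p = 6.41e-05).

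Of 27 genes induced by amino acid starvation and the factor ATF4, 11 rose and 0 fell, with a median of 0.22. The rises numbered 6 without Rb-null serum 1, 5 without Rb-null serum 2, 6 without Rb-null serum-free 2 and 14 without wild-type serum 1. Ddit3, the stress factor CHOP, read 1285 and 1226 in serum and 3058 and 3470.1 without (2.6-fold higher, SE 0.09 on the log2 scale, adjusted p = 1.39e-05). Nupr1, a stress-induced chromatin protein, read 460.2 and 420.3 against 1078 and 1396 (2.79-fold, adjusted p = 4.9e-05). Trib3, a pseudokinase, read 991.5 and 933 against 1929.5 and 2612 (2.33-fold, adjusted p = 0.00062). Each gene was higher on both serum-free arrays, and those arrays differed more from each other than the serum arrays did. Cebpb, a partner of ATF4, rose 2.16-fold (747 and 606 to 1447 and 1456.5, adjusted p = 0.000238). Other members, such as Psat1 (-0.26), Slc7a5 (-0.05) and Slc3a2 (0.05), did not pass. The amino acid response letters TGATGNAA were found in the windows of 3 of 10 called members (30%), against 2.7% of all tested genes with a window. Nupr1 and Trib3 are shown with the match in capitals.
Nupr1 (chr7:126625441-126625660, minus strand): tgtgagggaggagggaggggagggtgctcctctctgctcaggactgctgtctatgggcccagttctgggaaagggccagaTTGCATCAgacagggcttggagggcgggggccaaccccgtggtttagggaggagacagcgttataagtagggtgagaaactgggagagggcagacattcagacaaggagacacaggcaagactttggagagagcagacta
Trib3 (chr2:152344031-152344250, minus strand): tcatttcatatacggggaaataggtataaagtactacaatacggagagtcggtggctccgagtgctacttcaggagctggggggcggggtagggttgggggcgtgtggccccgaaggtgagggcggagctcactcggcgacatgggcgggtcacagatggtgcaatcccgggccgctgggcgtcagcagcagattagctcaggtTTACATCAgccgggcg
The match begins 110 bases before the start in Nupr1 and 14 bases after it in Trib3, both on the reverse strand of the printed letters. Ddit3 holds none in its window.

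The 20 aminoacyl-tRNA synthetase genes, several of which ATF4 is known to induce, held 4 rises and 0 falls (median 0.24): Wars (0.75), Sars (0.62), Lars (0.49) and Eprs (0.39). This count was 0 without Rb-null serum 2, 2 without any other Rb-null array and 10 without wild-type serum 1. Endoplasmic reticulum chaperones showed 4 falls among 18 and 0 rises, with 2 falls without Rb-null serum 1 or serum 2 and 6 without wild-type serum 1. Manf, a secreted factor of the unfolded protein response, went from 3101 and 3253 to 1916 and 1613 (1.81-fold lower, adjusted p = 0.00153), and Creld2, of the same response, from 1017 and 923 to 564 and 595.5 (1.67-fold). Hspa5, the main chaperone of that compartment, did not pass at -0.33. The heat shock protein list held 9 falls and 2 rises among 27 (median -0.18), with 3 falls without Rb-null serum 1 or serum 2, and 5 without Rb-null serum-free 1 or serum-free 2. Its rises numbered 0 without Rb-null serum 2, Rb-null serum-free 1 or either wild-type serum-free array. The inducible Hspa1b read 1832.5 and 2147 in serum and 1046 and 818 without (2.14-fold lower, adjusted p = 0.00227), and Hspa1a, its near-identical neighbour, 608 and 631 against 343 and 319 (1.87-fold, adjusted p = 0.000139). Their probe sets may share signal.

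Glutathione and oxidative stress genes held 10 rises and 1 fall among 39 (median 0.12), with 14 rises without wild-type serum 1. Mgst1, a microsomal glutathione transferase, was at the floor on both serum arrays and at 697.5 and 577 without serum, at least 3.23-fold higher (adjusted p = 1.49e-05). Apart from wild-type serum-free 2 (242), it was at the floor on all wild-type arrays too. It was tested only because it was high on the Rb-null serum-free arrays, so its rise had to follow and is a description. Ephx1, the microsomal epoxide hydrolase, rose 2.19-fold (1444 and 1488.5 to 3171 and 3253, adjusted p = 1.07e-05). Sqstm1, the autophagy receptor p62, rose 1.89-fold (4227 and 4089 to 7968 and 7721, adjusted p = 0.000123). In each case the lowest serum-free value was above the highest serum value. Targets of p53 held 10 rises and 4 falls among 21 (median 0.24); the rises numbered 6 without Rb-null serum 1, 5 without Rb-null serum 2, 6 when Rb-null serum-free 1 was left out and 5 when serum-free 2 was, and the falls 2 without either Rb-null serum array. The members named here rose, while the p53 list as a whole ran from -0.81 to 1.38. Gadd45a, a stress-induced growth arrest gene, went from 1235 and 1209.9 to 2671 and 2697 (2.2-fold higher, adjusted p = 1.49e-05), and the repair factor Xpc from 372.5 and 352 to 609 and 614 (1.69-fold). Ndrg1, which is also on the growth-arrest list, went from 1176 and 1161 to 3211 and 3213 on the dimmer of its probe sets (2.75-fold, adjusted p = 1.42e-05) and rose 2.6-fold on the brighter. Caspase and BCL2 family genes held 0 calls among 25 by limma, with 3 at an unadjusted p under 0.05, a range of -0.58 to 0.34, and 2 falls without wild-type serum 1.

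Lysosome and autophagy genes held the highest count of rises of any list, but not the most for its size. Targets of p53 (10 of 21, median 0.24) and ATF4 genes (11 of 27, median 0.22) had more rises for their number and higher medians. Of 37 tested, 14 rose and 2 fell (median 0.16). The rises numbered 9 without Rb-null serum 2, and the falls 0 without any single Rb-null array and 1 without either wild-type serum-free array. Ctsa, the protective protein of the lysosome, read 765 and 632.5 in serum and 1446 and 1424 without (2.06-fold higher, adjusted p = 0.000495). Map1lc3b, the LC3B protein of autophagosomes, read 1241 and 1339.8 against 2551.5 and 2242 (1.85-fold, adjusted p = 0.000334), and Grn, the lysosomal glycoprotein progranulin, on its brighter probe set 1305 and 1191 against 2189 and 2236 (1.77-fold, adjusted p = 0.000812). The serum-free arrays were the higher pair for each. Another Grn probe set did not pass (0.33, adjusted p = 0.053). Psap, the precursor of the saposins, was called on a dim probe set (229.5 and 211 to 399.6 and 833, log2 1.39, SE 0.26, adjusted p = 0.00773) whose serum-free arrays differed about as much from each other as from serum. Its brighter probe set rose by 0.42. The call on the dim probe set was lost without Rb-null serum 1 (adjusted p = 0.0603) and without Rb-null serum 2 (0.0892).

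Growth-arrest and quiescence genes held 11 rises and 1 fall among 29 (median 0.22), with 7 rises without Rb-null serum 1, 5 without Rb-null serum 2 and 7 without Rb-null serum-free 1. Txnip, which binds thioredoxin and limits glucose uptake, read 506 and 527 in serum and 1727.6 and 1473 without (3.09-fold higher, SE 0.14 on the log2 scale, adjusted p = 7.42e-05), while a second Txnip probe set did not pass (-0.01). Gas5, a noncoding host gene of small nucleolar RNAs, read 1674 and 1761 against 3627 and 3499 (2.07-fold, adjusted p = 0.000181) on its brighter probe set and 0.03 on another. Btg1, an antiproliferative gene, rose 1.64-fold (1946.7 and 1856.5 to 3089 and 3143, adjusted p = 0.000331). On the probe sets called, both serum-free arrays were above both serum arrays. Gas6 did not pass (276 and 288 against 293 and 302, adjusted p = 0.654). The fall on this list was that of Sparc, a matrix protein described with the matrix genes.

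Ribosome biogenesis, translation factor and polyamine genes held 12 falls and 4 rises among 37 (median -0.18); the falls numbered 6, 5, 7 and 6 without Rb-null serum 1, serum 2, serum-free 1 and serum-free 2, and the rises 1, 1, 1 and 2. Nolc1, a nucleolar assembly factor, went from 2438 and 2214 to 1300.3 and 1491 (1.67-fold lower, adjusted p = 0.000986), Nop56, of the small nucleolar particles, from 3039 and 2939 to 1717 and 1946 (1.63-fold), and Srm, the spermidine synthase, from 1545 and 1601 to 943.5 and 988 (1.63-fold, adjusted p = 0.000609). For each, both serum-free values were below both serum values. Eef2, the translocation factor of elongation, rose 1.46-fold (8409.8 and 7561 to 11164.6 and 12184, adjusted p = 0.00082). Cytosolic ribosomal proteins held 4 rises (2 without Rb-null serum 1 or serum 2) and 0 falls among 23, respiratory chain and ATP synthase genes 1 rise among 36 and proteasome subunits 1 fall among 28, and each of these last was lost without Rb-null serum 1, Rb-null serum 2, Rb-null serum-free 2, wild-type serum 2 or either wild-type serum-free array. Myc, the factor that drives many of these genes, read 1494 and 1374 in serum and 1636 and 1397 without (adjusted p = 0.918).

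Immediate-early genes, which serum induces quickly when it is added back to arrested cells, held 5 rises and 0 falls among 31 (3 rises without Rb-null serum 1, 8 without wild-type serum 1). Egr1, the early growth response factor, read 672 and 624 in serum and 1313 and 1142 without (1.89-fold higher, adjusted p = 0.00101), and Klf4, a factor of epithelial differentiation, 502.6 and 493.5 against 813 and 918 (1.73-fold, adjusted p = 0.00125). Neither gene overlapped between the media. Fos did not pass (198.8 and 197 against 268 and 260.1, adjusted p = 0.115). Cytoskeletal targets of SRF and YAP held 4 falls and 0 rises among 24, and their median was -0.05. The falls were led by secreted matricellular proteins, Ccn1 (1421 and 1449 to 585.5 and 489.6, 2.68-fold lower, adjusted p = 0.00018) and Ccn2 (4492 and 4411 to 2241 and 2059.7, 2.07-fold, adjusted p = 1.42e-05), with the nuclear and sarcomere protein Ankrd1 (3354 and 3393 to 1893.5 and 1504, 2-fold, adjusted p = 0.000221). All 4 arrays separated by medium in these genes.

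The epithelial junction and cornified envelope list had 8 rises and 3 falls among 28. Among the rises, Dsc2 was at the floor on all arrays but the Rb-null serum-free ones (277 and 266). It was tested only because it was high there, so its rise had to follow and is a description. The rises numbered 4, 3, 5 and 3 without Rb-null serum 1, serum 2, serum-free 1 and serum-free 2, 5 without wild-type serum-free 1 or serum-free 2, and 10 without wild-type serum 1. Gjb2, the gap junction protein connexin 26, read 223 and 229 in serum, close to the floor, and 620.3 and 562 without (2.61-fold higher, SE 0.08 on the log2 scale, adjusted p = 8.61e-06). Pkp1, a plaque protein of desmosomes, read 2263 and 2479 against 3999 and 3825.5 (1.65-fold, adjusted p = 0.000461), whereas the tight junction protein Cldn1 fell 2.02-fold (1003 and 1031 to 524 and 482, adjusted p = 0.000179) on the brighter of its probe sets, while the other did not pass (-0.36, adjusted p = 0.346). These members separated by medium, Gjb2 and Pkp1 upward and Cldn1 downward. Basal markers split into 2 rises and 2 falls among 16 and luminal markers into 3 rises and 4 falls among 20, with falls of Krt8 (-0.31) and the luminal surface gene Prom1 (-0.52) and a rise of Plet1 (1.07, 834.5 and 787 to 1668 and 1727, adjusted p = 6.26e-05). Another Prom1 probe set moved alike but did not pass (-0.54, adjusted p = 0.0985). Without Rb-null serum 1 or serum 2 the luminal list held 1 rise and 0 falls, and without Rb-null serum-free 2 its falls numbered 2. The basal rises numbered 1 without Rb-null serum 2.

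Matrix genes and matrix receptors held 4 rises and 3 falls among 41, among them the large fall of Tnc. These counts are near the shares over all genes (7.62% rose and 6.64% fell), and those of the TGF-beta and BMP list below are not far above them. The rises numbered 0 without Rb-null serum 2 and 2 without any other Rb-null array or either wild-type serum-free array, and the falls 1 without Rb-null serum 2 or serum-free 2 and 5 without wild-type serum 1. Tnc, the adhesion-modulating glycoprotein tenascin C, read 1269 and 1327 in serum and 299 and 316 without (4.22-fold lower, log2 -2.08, SE 0.07, adjusted p = 6.31e-07). A second probe set read 848 and 903 in serum and 206 and the floor without (-2.12), with all wild-type arrays at the floor. It was tested only because it was high in serum, so its fall had to follow and is a description. Sparc, which binds collagen and modulates adhesion, read 707 and 813 against 415 and 269.6 (2.27-fold lower, adjusted p = 0.00629), a call lost without Rb-null serum 2 (0.0817) and without Rb-null serum-free 2 (0.0588). In both genes every serum-free array was below every serum array. The mesenchymal list, which shares Sparc, held 3 falls among 16 and 0 rises, with 1 fall without Rb-null serum 1 or serum-free 1 and 0 without Rb-null serum 2 or serum-free 2. Growth factors and receptors held 5 rises and 5 falls among 37, but 3 and 0 without Rb-null serum 1, 2 and 0 without Rb-null serum 2, and 3 and 2 without Rb-null serum-free 2; the falls numbered 2 without Rb-null serum-free 1 and 3 without either wild-type serum-free array. Vegfa, the endothelial growth factor, read 276 and the floor in serum and 498.5 and 632 without (at least 2.41-fold higher, adjusted p = 0.00403; 0.0586 without Rb-null serum 2 and 0.0541 without Rb-null serum-free 2), and Erbb3, a receptor of the EGF receptor family, rose 1.78-fold (737 and 786 to 1370.2 and 1342.5, adjusted p = 0.000822) on the brighter of its probe sets, while the other did not pass (-0.17, adjusted p = 0.759). The TGF-beta and BMP list held 3 rises (0 without Rb-null serum 2, 1 without Rb-null serum-free 1) and 4 falls among 35, among them the activin antagonist Fst, which went from 789.7 and 786 to 402.5 and 396 (1.97-fold lower, adjusted p = 0.000315).

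Inflammatory lists showed scattered changes. Cytokine and NF-kB genes held 3 rises and 6 falls among 33. The rises numbered 1 without Rb-null serum 2, and the falls 2 without Rb-null serum 1 and 3 without any other Rb-null array or wild-type serum 2. The cytokine Il1a fell (777 and 735 to 518 and 498, 1.49-fold, adjusted p = 0.00115) while Il1rn, the antagonist of its receptor, rose from near the floor (198 and 197 to 340.1 and 334, at least 1.71-fold, adjusted p = 4.24e-05). These moved in opposite directions without overlap. Interferon-stimulated genes held 2 rises and 3 falls among 44, of which Ifi202b, a cytosolic DNA sensor family member, read 374 and 354 against 727.5 and 765 (2.05-fold higher, adjusted p = 1.49e-05). Without wild-type serum 1 that list held 4 rises and 5 falls. With all arrays its counts were near or below the shares over all genes (7.62% rose and 6.64% fell). Among its falls, Ifit2 was at the floor on all arrays but the Rb-null serum ones (236 and 230). It was tested only because it was high there, so its fall had to follow and is a description. Class I antigen presentation genes held 3 rises among 14, all of peptide supply: the transporter Tap1 (340.0 and 332 to 552 and 499, 1.56-fold) and the immunoproteasome subunits Psmb8 and Psmb9. Without Rb-null serum 1 or serum-free 1 the count was 1. The other lists held 3 rises and 1 fall (glycolysis and hypoxia response, 25 tested), 1 rise and 0 falls (metallothioneins and iron handling, 14), 2 rises and 0 falls (Wnt and Notch pathway, 32), 3 rises and 3 falls (glucocorticoid response, 19), 5 rises and 1 fall (proteases and inhibitors, 27), and 0 rises and 1 fall (neuroendocrine markers, 7). Those counts were small and most moved when arrays were left out. The counts of the metallothionein list and of the Wnt and Notch list were near or below the shares over all genes. Without Rb-null serum 2 the rises of the glycolysis list and of the Wnt and Notch list numbered 0, those of the protease list 1, the falls of the glucocorticoid list 1 and the falls of the neuroendocrine list 0. Without Rb-null serum 1 they numbered 1, 0, 2, 1 and 0, and without Rb-null serum-free 1 the glycolysis list held 5 falls.

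**Figure D2:**
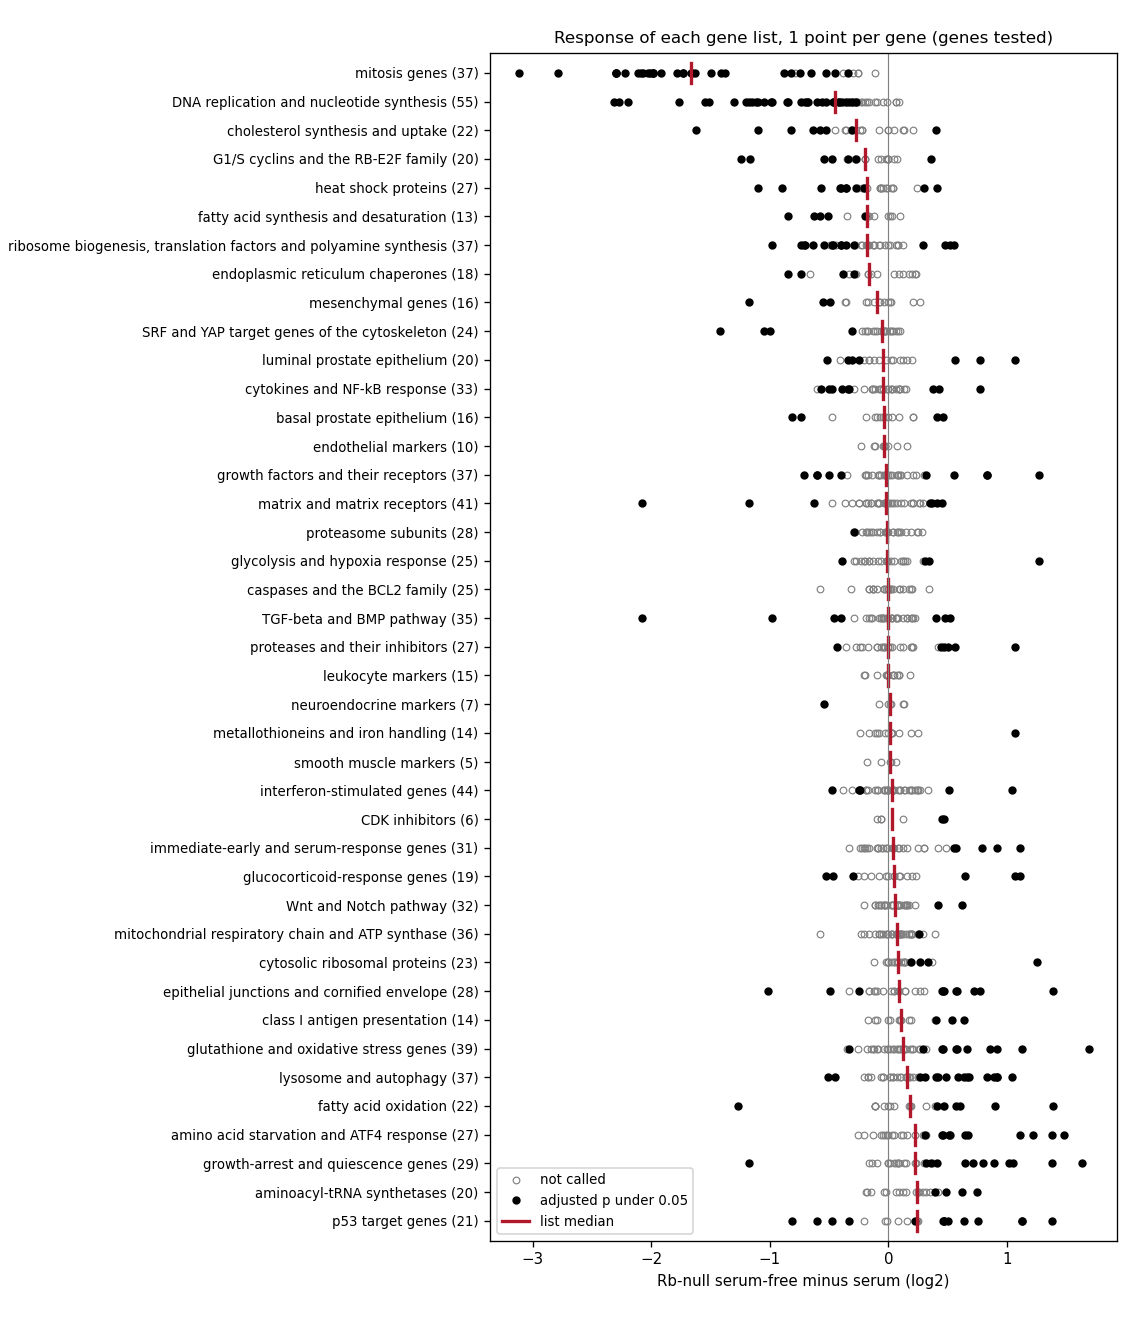
Log2 difference, serum-free minus serum, in Rb-null cells for each gene of the 41 lists (1 point per gene on its brightest probe set, number tested in brackets, filled where the adjusted p is under 0.05, red bar at the list median). Mitosis genes have a median of -1.67 and replication genes of -0.45, while the highest list medians are near 0.24.

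Several of the genes with the largest rises belong to none of these lists. Anxa8, a calcium-dependent phospholipid binding annexin, read 570.3 and 547 in serum and 1811 and 1930.1 without (3.35-fold higher, log2 1.74, SE 0.09, adjusted p = 6.05e-06). Reep6, an endoplasmic reticulum shaping protein, read 197 (the floor) and 199.8 against 598 and 631 (at least 3.1-fold, adjusted p = 3.95e-06). Stbd1, which tethers glycogen to membranes, read 727.5 and 700.6 against 1864.5 and 2014.5 (2.71-fold, adjusted p = 2.34e-05). In all of these the serum-free arrays were high and close to each other. Mal, a membrane protein of apical transport, rose 2.6-fold (908 and 948 to 2489.9 and 2333, adjusted p = 7.15e-05). Sgip1, an endocytic adaptor, was called at 2.66-fold (232 and 242 to 454 and 878), but its serum-free arrays were far apart and the call was lost without Rb-null serum 1 (adjusted p = 0.0508) and without Rb-null serum 2 (0.0518). From the floor in serum rose the secreted ribonuclease Rnase4 (427 and 393 without serum, at least 2.08-fold), whose call was lost without Rb-null serum 2 (0.0561) and Rb-null serum-free 1 (0.0547), the actin-associated Synpo (294 and 268, at least 1.43-fold) and Cdadc1, a deaminase-like gene (276 and 273, at least 1.4-fold). Synpo was at the floor on all other arrays of the series and entered the test only through the group where it was high, so its call had to follow and is given as a description.

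The wild-type line gives the background for how much of this response was also seen in cells with Rb1. The comparisons within each line share no arrays, but they share the normalization and the estimate of spread. Their calls are therefore not independent. In wild-type cells 16.6% of genes were called. Of the 1216 calls in Rb-null cells, 711 were called in the same direction in wild-type cells, 58.5% of the Rb-null calls and 51% of the 1394 wild-type calls, and 6 were called in the opposite direction. The sign was the same for 90.9% of the Rb-null calls, and for 128 of the 138 that reached 2-fold. Across the 7063 genes, which are not independent replicates, the log2 differences of the lines correlated at 0.72. Mitosis genes had 32 falls and a median of -1.5 in wild-type cells, replication genes 40 falls and a median of -0.71, ATF4 genes 8 rises and 3 falls, and aminoacyl-tRNA synthetases 2 rises and 5 falls with a median of -0.11.

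**Figure D3:**
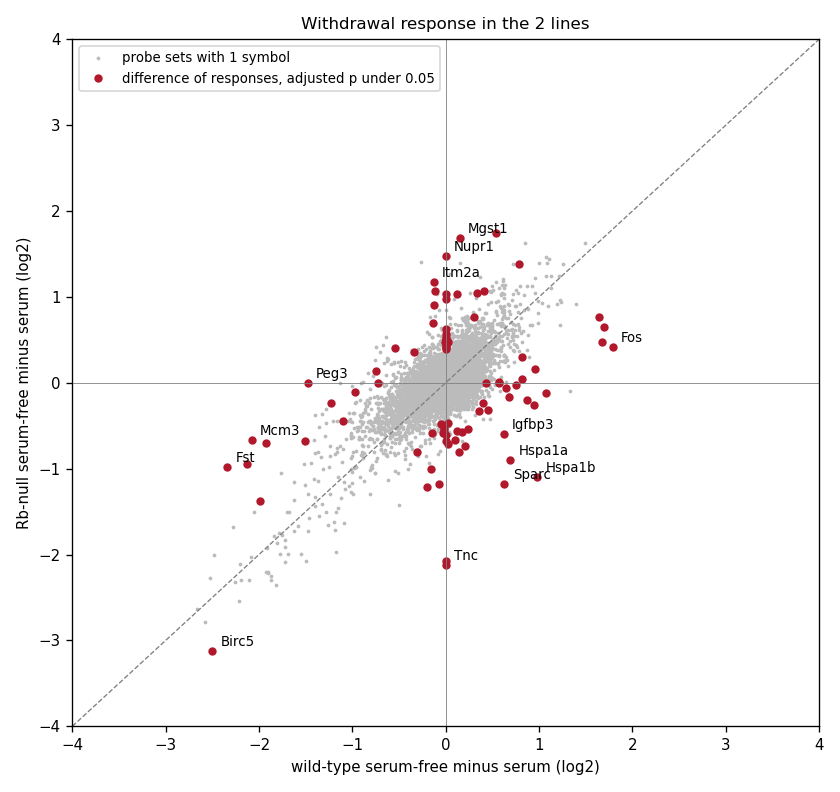
Log2 difference, serum-free minus serum, in wild-type (horizontal) and Rb-null cells (vertical), 1 point per tested probe set with a symbol; the dashed line marks equal responses and red points are those whose responses differed (adjusted p under 0.05). Most points follow the dashed line, Birc5 lies at -2.5 and -3.12, and Tnc at 0 and -2.12. The labelled Tnc probe set was tested only because it was high on the Rb-null serum arrays.

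A test of the difference of the responses called 84 of the 8643 probe sets (0.972%), and 65 of 7063 genes (0.92%), fewer than either line's own response. The SE of the difference is larger (0.11 for Birc5, against 0.08 within each line), so fewer calls do not show that the responses were alike. At an unadjusted p under 0.05 (limma), 958 probe sets with a symbol differed, while the counts that follow use the adjusted p. Over all probe sets the count was 90, and it became 245 without wild-type serum 1, 36 and 46 without wild-type serum 2 and 3, 8 without either wild-type serum-free array, 10 and 6 without Rb-null serum 1 and 2, and 38 without Rb-null serum-free 2. Tnc fell in Rb-null cells, whereas all wild-type arrays had it at the floor, so no fall could be seen there (difference -2.08, adjusted p = 1.48e-05 on the brighter probe set). Arrays at the floor show no spread, so the SE and p-values of such probe sets are likely too small. Hspa1a fell in Rb-null cells and rose in wild-type cells, from 302, 286 and 305 to 468 and 491 (log2 0.69), a difference of -1.59 (adjusted p = 0.00046), and Hspa1b did the same (-1.1 against 0.98, difference -2.08, adjusted p = 0.00433). In opposite order, Nupr1 and Ifi202b rose in Rb-null cells, whereas all wild-type arrays had them at the floor (differences 1.48 and 1.04, adjusted p = 0.00433 and 0.00255). Mgst1 rose by 1.69 in Rb-null cells against a change of 0.15 that did not pass in wild-type cells (difference 1.54, adjusted p = 0.00368). That 0.15 came from wild-type serum-free 2 alone (242), as the other wild-type arrays were at the floor. Mgst1 was tested only because it was high on the Rb-null serum-free arrays, so its difference is a description. In Rb-null and wild-type cells Anxa8 rose by 1.74 and 0.54 (difference 1.21, adjusted p = 0.00433). Fst fell in both lines (log2 -0.98 in Rb-null and -2.34 in wild-type cells, difference 1.36, adjusted p = 0.00426). Without Rb-null serum 2 the adjusted p was 0.0622 for Hspa1b, Nupr1, Mgst1, Anxa8 and Fst alike, and without single wild-type serum-free arrays it lay between 0.0527 and 0.0668 for Hspa1b, Nupr1, Anxa8 and Fst; Fst was also lost without Rb-null serum 1 (0.0546).

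Among cell cycle genes, Mcm3 fell less in Rb-null than in wild-type cells on both of its probe sets (-0.67 against -2.08, difference 1.42, adjusted p = 0.0312, and -0.68 against -1.51, difference 0.83, adjusted p = 0.017). On the dimmer Mcm3 probe set the serum-free arrays read 1180 and 1040.3 in Rb-null cells and 327 and 310.0 in wild-type cells, against 1746 and 1771 in serum in Rb-null and 1743, 1162 and 1210.2 in wild-type cells. Leaving out any serum-free array, or either Rb-null serum array, ended that call (adjusted p from 0.122 to 0.237). Mcm7, named after its values were seen, differed as well (-0.11 against -0.97, difference 0.86, adjusted p = 0.0228). Its relatives Mcm2 (difference 0.66, adjusted p = 0.0716) and Mcm4 (0.62, 0.119) did not pass, and neither did the replication clamp Pcna (0.54, 0.117). Mitosis genes as a list had a median difference of the responses of -0.16 and replication genes of 0.07, against -0.03 over all genes. Birc5 fell more in Rb-null cells (difference -0.62, adjusted p = 0.047), a call lost without any single array other than wild-type serum 1 (adjusted p from 0.089 to 0.245). Dbf4, the activator of the replication kinase Cdc7 and likewise named after its values were seen, fell in Rb-null cells and did not pass in wild-type cells (-1.18 against -0.07, difference -1.11, adjusted p = 0.0105). For Mcm7, Dbf4 and the brighter Mcm3 probe set, results with single arrays left out are not given here, so these calls cannot be taken as firmer.

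**Figure D4:**
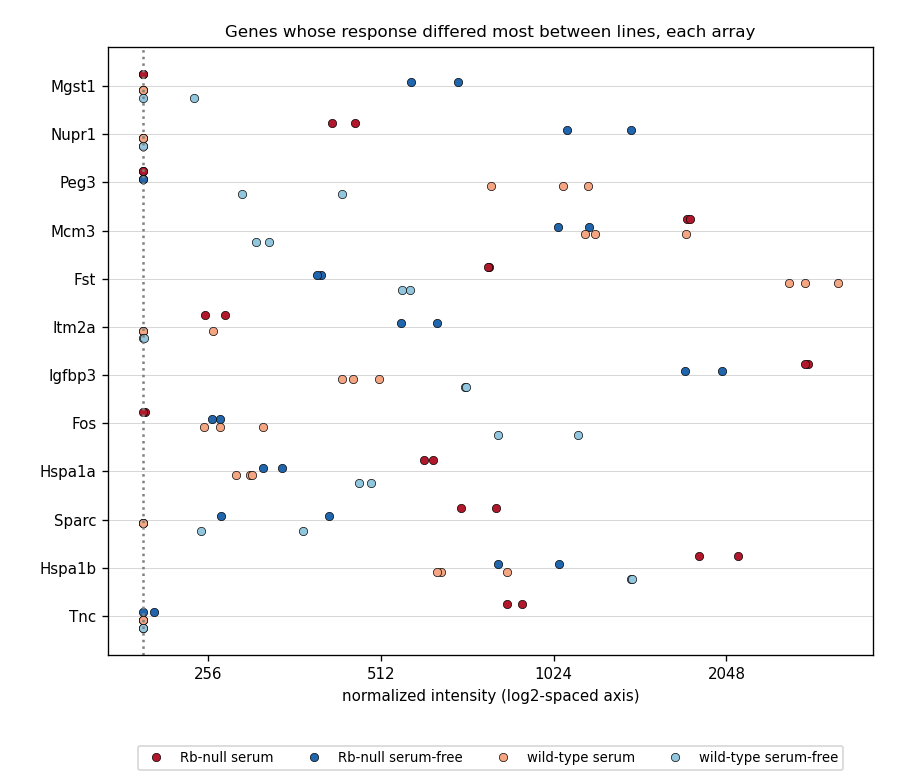
Normalized intensity on all 9 arrays, on a log2-spaced axis, for the 12 genes whose responses differed most between the lines, 1 point per array and a colour per group, with the floor of 197 dotted. Tnc and Nupr1 sit on the floor line throughout the wild-type arrays and the plotted Peg3 probe set throughout the Rb-null arrays, while Hspa1a and Hspa1b move in opposite directions in the lines.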

How the data were processed

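Total RNA of each sample was hybridised to a 1-colour mouse expression array, per the labels. The authors deposited 1 intensity per probe set and array on a linear scale. Their software and scaling were not stated in the sources used here. Array medians as deposited ran from 445 to 474, and precision is limited by how few arrays there were.

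The deposited intensities were quantile normalized over the 9 arrays, raised to a floor (the 25th percentile, 197) and put on the log2 scale. Probe sets above the floor on at least 2 arrays were tested (9686). Means of the 4 groups were fitted with limma 3.58.1 in R 4.3.3, with an intensity trend in the prior variance and 5 residual degrees of freedom. The p-values were adjusted by Benjamini-Hochberg over all tested probe sets. The fit was tested on simulated data. Gene names came from the platform annotation; 396 probe sets with several genes and 1193 with none were not named. A gene list was described on the brightest tested probe set of each gene, over 41 lists with 966 tested genes. Genes were named by this rule: the 12 highest and 12 lowest called log2 differences without overlap among those with a mean above the floor in both groups, up to 4 a direction where the lower group lay at the floor, up to 4 called members of each list by smallest adjusted p (up to 2 not called where fewer than 2 were called), the 6 highest and 6 lowest called differences between the lines, and a fixed set that includes Rb1, Id2, Ccnd1, Cdkn1a, Cdkn1b, Myc, Egr1, Mki67, Gas6 and Txnip; its other members are not reported here. Bub3, Cdc25c, Dbf4, Foxm1, Hspa5, Krt5, Krt14, Krt18, Mcm2, Mcm4, Mcm5, Mcm7, Pcna, Psat1, Racgap1, Rbl2, Slc3a2, Slc7a5 and Stmn1 fall outside it and were chosen after their values were seen. The members and lists were chosen with earlier results of these data known. Same-numbered Rb-null arrays did not deviate together (correlation -0.23), so the numbers were not treated as pairs.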

Additional observations from a re-analysis of the deposited data

Results flagged for a closer look

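The following named probe sets had responses that differed between the lines by the test of the difference itself (limma, adjusted p under 0.05), given as the log2 response in Rb-null cells minus that in wild-type cells. The response was more positive in Rb-null cells for Mgst1 (1.54), Nupr1 (1.48), Peg3 (1.48), Mcm3 (1.42), Fst (1.36), Itm2a (1.31), Anxa8 (1.21), Mt1 (1.18), Ifi202b (1.04), Plet1 (0.66), Ndrg1 (0.59), Synpo (0.51), Cdadc1 (0.49), Il1rn (0.47) and Dsc2 (0.46). It was more negative for Tnc (-2.12 and -2.08 on separate probe sets), Hspa1b (-2.08), Sparc (-1.81), Hspa1a (-1.59), Fos (-1.37), Igfbp3 (-1.22), Krt6a (-0.95), Sfn (-0.95), Ankrd1 (-0.84), Il1a (-0.76), Birc5 (-0.62), Cebpd (-0.49) and Ccnd1 (-0.43). Of these, Tnc, Hspa1a and Ifi202b passed with any single array left out. Synpo and Dsc2 were at the floor on all arrays but the Rb-null serum-free ones and were tested only because they were high there, so their difference had to follow and is a description. The same holds for Mgst1, for which only wild-type serum-free 2 (242) was also above the floor. The Tnc probe set at -2.12 was tested only because it was high on the Rb-null serum arrays, so its difference is likewise a description. Where all wild-type arrays were at the floor (Tnc, Nupr1 and Ifi202b), no response could be seen in that line. Those arrays also add no spread to the shared estimate, so the p-values of these probe sets are likely too small. Other probe sets did not pass for Ndrg1 (0.39, adjusted p = 0.254), Ccnd1 (0.18, adjusted p = 0.751), Igfbp3 (-0.54, adjusted p = 0.157) and Krt6a (-0.77, adjusted p = 0.239). On the Peg3 probe set concerned all Rb-null arrays were at the floor, while a brighter probe set of the gene did not differ (0.09, adjusted p = 0.763). No group held enough arrays for a test of outlying samples.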

How the results depend on the processing

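No named value reversed under any alternative. Of 162 named values, 140 were called, and 87 of these stayed called in every alternative other than the replicate block on the Rb-null arrays alone, where 99 lost their call. The 1348 calls in Rb-null cells became 105 with the replicate block on the Rb-null arrays alone, 493 when a call was a lack of overlap and 1.5-fold, and 467 to 2257 with single arrays left out; with the replicate block over 9 arrays they numbered 1255. The 1537 wild-type calls became 768 with the arrays of that line alone, 570 by lack of overlap and 1.5-fold, and 651 to 1943 with single arrays left out. The 90 differences between the lines became 57 with the floor at the 10th percentile, 57 with no intensity trend, 51 with the replicate block over 9 arrays, and 6 to 245 with single arrays left out. With the replicate numbers of the Rb-null serum-free arrays crossed, an alternative chosen after seeing the data, the Rb-null calls numbered 1149 and the differences 35. The cause of these shifts was not tested. Where leaving out an array left 1 in a group, that array was assumed to vary like the other groups. Values near the floor understate the change of dim genes, and groups at the floor show no spread, which can make p-values too small.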
